A study of Bos taurus with 6 samples.

Results

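The miRNA machinery was followed through 10 genes of the 23475 genes with a deposited FPKM value. They are *DROSHA* and *DGCR8* (nuclear processing), *XPO5* (nuclear export), *DICER1* and *TARBP2* (cytoplasmic processing), *AGO1*, *AGO2*, *AGO3* and *AGO4* (the Argonautes), and *TNRC6A* (a silencing scaffold). A miRNA is cut from its primary transcript in the nucleus by DROSHA with DGCR8, carried to the cytoplasm by exportin 5 (XPO5), and trimmed to a duplex by DICER1 with TARBP2. An Argonaute protein keeps one strand of that duplex as its guide, and the TNRC6 proteins bound to Argonaute recruit the enzymes that shorten the poly(A) tail and remove the cap of the target mRNA. An agomir enters this route as a finished duplex, so it needs an Argonaute and the silencing proteins but neither nuclear cutting nor export. In adipose tissue, *DICER1* and *DGCR8* are known to be needed for normal adipocyte development.

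The cells were bovine, isolated from the subcutaneous fat of calves, grown in high-glucose DMEM with fetal bovine serum and collected 48 h after transfection. One group received the *bta-miR-484* agomir, a chemically modified double-stranded RNA that acts as the miRNA (3 libraries), and the other the agomir NC, the same kind of molecule as a negative control (3 libraries). Both groups were therefore transfected with a duplex, and no cells without a duplex were analysed here. Whether a group's 3 libraries were made from separate calves or from parallel cultures is not stated, so every p-value measures the spread between these libraries, which may be technical. The level of *bta-miR-484* itself was not analysed here. The values are FPKM, meaning fragments scaled by the length of the transcript and by the library's mapped fragments, and they summed to between 365977 and 379361 per library. The read depth behind them is unknown.

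The labels call the cells adipocytes. Of 10 markers of preadipocytes and mesenchymal cells, 9 had a mean of at least 0.5 FPKM, with *PDGFRA*, a receptor of fat precursors, at 166 ± 3.54 FPKM (SD, n = 6) and the collagen gene *COL3A1* the highest at 7623 FPKM. The remaining one, *DLK1*, was listed at 0 in all 6 libraries. Markers of mature adipocytes were low, with *ADIPOQ* between 0.0763 and 0.197 FPKM, *LEP* at or below 0.0368 FPKM and *LPL*, the highest of 8, at 3.73 ± 0.315 FPKM (SD, n = 6). The defining markers of endothelial (*PECAM1*), immune (*PTPRC*), muscle (*MYOD1*) and epithelial (*EPCAM*) cells were at or below 0.312 FPKM in every library. Of the pericyte and smooth muscle markers the most abundant was *ACTA2*, the smooth muscle actin gene, at 207 FPKM. The rest of that list was lower, with *CSPG4* at 5.13 FPKM, *MYH11* at 0.359 FPKM and *RGS5* at 0.0136 FPKM. The most abundant immune marker was *CD14* at 6.27 FPKM, and the most abundant endothelial marker *VWF* at 3.39 FPKM. The summed mature adipocyte markers lay between 11.0 and 12.6 FPKM and the summed mesenchymal markers between 22957 and 24251 FPKM, with the groups overlapping in both sums. Of the markers, *PPARG* was past an unadjusted p of 0.05 in limma with a higher mean under the agomir (3.86 against 3.23 FPKM), and *FABP4* (1.90 against 2.89 FPKM) and *DCN* (2863 against 3114 FPKM) with a lower one. At a mean of 0.5 FPKM or more, these were 1 of 9 mesenchymal and 2 of 5 mature adipocyte markers. Of all genes at that level, 10.9% were past the same line. None of the 3 passed the adjusted threshold, the groups overlapped for *FABP4*, and the part of these genes in the values below was not tested. In bulk RNA, fewer cells of a type and less RNA per cell cannot be told apart.

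With the agomir, 9 of the 10 machinery genes had a higher mean than under the agomir NC, by between 3.86% and 36.6%, and *DGCR8* was the exception. The differences were small and none passed the adjusted threshold. Per library, the 10 genes summed to 89.1, 88.8 and 86.2 FPKM under the agomir and to 83.5, 79.3 and 79.1 FPKM under the agomir NC. Every agomir library thus had a higher sum than every agomir NC library. The gap between the group means, 88.0 ± 1.61 against 80.6 ± 2.49 FPKM (SD, n = 3 each), was larger than the spread within either group.

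The groups were compared with limma on log2(FPKM + 0.5), two-sided, over the 12422 genes that averaged 0.5 FPKM or more, a filter that all 10 machinery genes passed. At an adjusted p of 0.05 (Benjamini-Hochberg over all genes tested), 0 of the 10 were called, against 0.00805% of all genes, with their adjusted p in limma between 0.321 and 0.876. At an unadjusted p of 0.05, 4 of the 10 were past the line, *DICER1*, *AGO2*, *AGO3* and *TNRC6A*, all higher under the agomir. Of all genes tested, 10.9% were past that line in either direction and 6.63% in the higher direction. All agomir libraries lay above all agomir NC ones in 6 of the 10 genes and in 10.9% of all genes, and all below in 0 of the 10 and in 6.36% of all genes (17.2% in either direction). The median log2 fold change of the 10 was 0.15, and that of all genes tested was 0.013, with 55.1% of all genes above 0.

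The unadjusted count of 4 moved with single libraries. It was 1 without agomir replicate 2 (8.09% of all genes past the line in the same fit) and 1 without agomir NC replicate 2 (9.57%), and it was 2 without agomir replicate 3 (8.86%) and 2 without agomir NC replicate 3 (9.01%). It was also 2 once a trend of each library's log2 values with the genomic span of the genes was taken out (11.5%). Across genes, the log2 fold change and log10 span had a Pearson r of 0.155, where genes are not independent replicates. *DICER1* was past the unadjusted line under all 16 other settings tried. Among all genes past that line, 824 were higher and 535 lower under the agomir (60.6% higher), but 657 were higher and 706 lower after median-ratio scaling of the libraries (48.2% higher), where the 10 genes still had a median of 0.13 with 4 past the line. Agomir NC replicate 3 held the lowest value of 6 of the 10 genes and the highest of 1, *DGCR8*. Each agomir library held the highest value of 3 genes.

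Compared per length over all 6 libraries, the levels spanned from 14.6 ± 0.823 FPKM for *DGCR8* to 1.04 ± 0.273 FPKM for *AGO4* (SD, n = 6). Below *DGCR8* came *AGO2* (13.7 FPKM) and *TNRC6A* (11.7 FPKM), then *XPO5* (9.60 FPKM), *DICER1* (9.16 FPKM) and *TARBP2* (9.02 FPKM), and last *AGO1* (6.49 FPKM), *DROSHA* (4.75 FPKM), *AGO3* (4.17 FPKM) and *AGO4*. The ranges of neighbors in this order overlapped between *DGCR8* and *AGO2*, *AGO2* and *TNRC6A*, *XPO5* and *DICER1*, *DICER1* and *TARBP2*, and *DROSHA* and *AGO3*. Within single libraries, *AGO2* was above *TNRC6A*, and *DROSHA* above *AGO3*, in 6 of 6, and *DGCR8* was above *AGO2* in 5 of 6. *XPO5* was above *DICER1* in 4 of 6 and *DICER1* above *TARBP2* in 4 of 6, so these 3 genes had no fixed order. The order of the group means also differed. Under the agomir the mean of *AGO2* (14.6 FPKM) was above that of *DGCR8* (14.4 FPKM) and the mean of *DICER1* (10.1 FPKM) above that of *XPO5* (9.83 FPKM), and under the agomir NC the mean of *TARBP2* (8.85 FPKM) was above that of *DICER1* (8.21 FPKM). None of these switches held in every library of its group, and *AGO2* was above *DGCR8* only in agomir replicate 3. Among the genes tested, the level of *DGCR8* lay at the 67.1 percentile and that of *AGO4* at the 8.87 percentile.

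**Figure D1:**
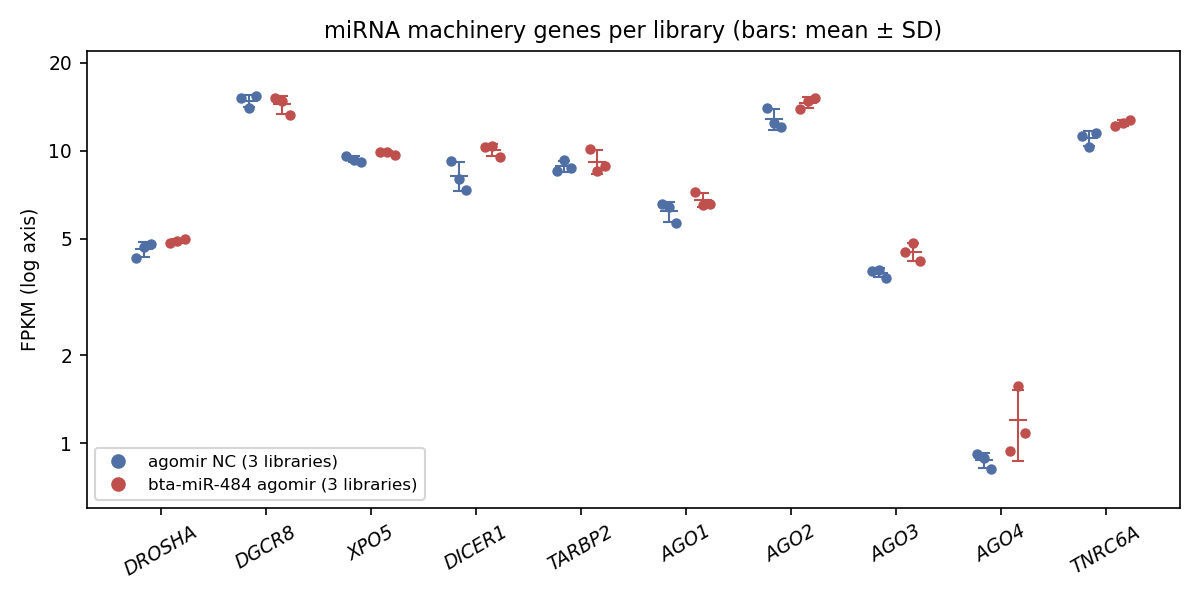
FPKM (log axis) of the 10 machinery genes in each library, as points, with the mean and SD of the 3 agomir NC libraries (blue) and the 3 agomir libraries (red). The groups are separated for *DROSHA*, *XPO5*, *DICER1*, *AGO3*, *AGO4* and *TNRC6A*, and they overlap for *DGCR8*, *TARBP2*, *AGO1* and *AGO2*. *AGO4* has 1 agomir library at 1.56 FPKM above the rest.

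In the nuclear steps, no machinery gene was past the unadjusted line. *DROSHA*, the RNase III that makes the first cut, was at 4.83, 4.91 and 4.99 FPKM under the agomir and at 4.31, 4.67 and 4.81 FPKM under the agomir NC. The groups did not overlap, but the nearest libraries lay side by side. The log2 fold change of *DROSHA* was 0.086 (95% interval -0.091 to 0.26), with an adjusted p of 0.736 in limma. With 1 library left out it ranged from 0.045, without agomir NC replicate 1, to 0.12.

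*DGCR8* encodes the RNA-binding partner of DROSHA. It was at 15.1, 14.9 and 13.3 FPKM under the agomir and at 15.1, 14.0 and 15.4 FPKM under the agomir NC, and the lowest agomir library lay below the agomir NC range. For *DGCR8* the log2 fold change was -0.040 (95% interval -0.19 to 0.11, adjusted p = 0.876 in limma), and it was 0.017 without agomir replicate 3, the lowest library. Over all 6 libraries *DGCR8* had the highest mean level of the machinery genes, though *AGO2* was above it in agomir replicate 3, and its partner *DROSHA* was among the lowest. The ratio of *DGCR8* to *DROSHA* FPKM was 2.94 ± 0.248 under the agomir and 3.23 ± 0.260 under the agomir NC (SD, n = 3 each), and the groups overlapped.

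*XPO5*, which encodes the export receptor for hairpin precursors, was at 9.92, 9.89 and 9.68 FPKM under the agomir and at 9.63, 9.32 and 9.15 FPKM under the agomir NC. Every agomir library was higher, the nearest pair by less than the spread within either group. It had the smallest standard error (SE) of the 10 genes, 0.060, around a log2 fold change of 0.067 (95% interval -0.069 to 0.20, adjusted p = 0.729 in limma). In the RefSeq annotation *XPO5* overlaps *POLR1C*, a subunit gene of RNA polymerases I and III, and strand was not stated for the counting, so reads in the overlap cannot be assigned. The same holds for *AGO2*, which overlaps a long noncoding RNA gene, *AGO3*, which overlaps a pseudogene and a tRNA gene, *TNRC6A*, which overlaps a pseudogene, and *DGCR8*, which overlaps a miRNA gene. *POLR1C* was at 7.30 ± 0.447 FPKM under the agomir and 7.96 ± 0.688 FPKM under the agomir NC (SD, n = 3 each), which is a log2 fold change of -0.12 (SE 0.082).

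In the cytoplasmic step, the groups were apart for *DICER1* and overlapped for its partner *TARBP2*. *DICER1*, the RNase III that cuts the hairpin to a duplex, was at 10.3, 10.4 and 9.56 FPKM under the agomir and at 9.24, 8.03 and 7.36 FPKM under the agomir NC. The groups did not overlap, and agomir NC replicate 3 was the lowest. Their means, 10.1 ± 0.468 and 8.21 ± 0.955 FPKM (SD, n = 3 each), had a ratio of 1.23. The log2 fold change of 0.29 (SE 0.087, 95% interval 0.093 to 0.48) was level with that of *AGO4* as the largest of the 10 genes, and 2.64% of all genes tested had a higher one. Its unadjusted p in limma was 0.00835 and its adjusted p 0.321, and p in the exact two-sided permutation test was 0.1, the floor for 3 against 3. Leaving out any 1 library kept the log2 fold change of *DICER1* between 0.22 and 0.37.

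*TARBP2* encodes a double-stranded RNA-binding cofactor of DICER1. It was at 10.1, 8.53 and 8.90 FPKM under the agomir and at 8.51, 9.30 and 8.72 FPKM under the agomir NC, so that the groups overlapped and 1 agomir library stood above the others. Its log2 fold change was 0.049 (95% interval -0.13 to 0.23, adjusted p = 0.865 in limma), and -0.020 without agomir replicate 1. The ratio of *DICER1* to *TARBP2* FPKM was 1.02, 1.22 and 1.07 under the agomir and 1.09, 0.864 and 0.844 under the agomir NC, and 1 agomir NC library lay within the agomir range. *PRKRA*, which encodes the other cofactor of this kind, was at 5.88 ± 0.472 FPKM under the agomir and 5.51 ± 1.05 FPKM under the agomir NC (SD, n = 3 each), with overlapping groups and a log2 fold change of 0.097 (SE 0.12). That value was 0.24 without agomir NC replicate 3, past the line (unadjusted p = 0.0342 in limma), and 0.023 without agomir NC replicate 2.

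All 4 Argonaute genes had a higher mean under the agomir, with log2 fold changes between 0.12 and 0.29. *AGO2*, which encodes the Argonaute known for cutting fully paired targets, was at 13.9, 14.8 and 15.2 FPKM under the agomir and at 14.0, 12.5 and 12.0 FPKM under the agomir NC. The groups crossed in 1 pair of libraries, agomir replicate 1 and agomir NC replicate 1, which differed by less than the spread within either group. Means of 14.6 ± 0.642 and 12.8 ± 1.05 FPKM (SD, n = 3 each) gave a log2 fold change of 0.18 (SE 0.071, 95% interval 0.024 to 0.34), with limma's unadjusted p at 0.0285 and its adjusted p at 0.402. It was past the unadjusted line in 11 of 16 other settings, and not without agomir replicate 2, agomir replicate 3, agomir NC replicate 2 or agomir NC replicate 3, nor with quantile normalization.

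*AGO1*, *AGO3* and *AGO4* encode Argonautes that silence mainly without cutting. In the RefSeq annotation these 3 genes are direct neighbors in the order *AGO3*, *AGO1*, *AGO4*, and *AGO2* stands apart from them. *AGO3* was at 4.51, 4.84 and 4.19 FPKM under the agomir and at 3.89, 3.92 and 3.67 FPKM under the agomir NC, so all agomir libraries were higher. Its log2 fold change was 0.21 (SE 0.086, unadjusted p = 0.0350, adjusted p = 0.418 in limma), and it missed the unadjusted line without agomir replicate 1 or 2, without any of the agomir NC libraries, and once the gene span trend was taken out, at a log2 fold change of 0.18 (unadjusted p = 0.0590). *AGO1*, the next gene, was at 7.21, 6.55 and 6.59 FPKM against 6.56, 6.40 and 5.65 FPKM, with groups that overlapped by 1 library of each. Its log2 fold change of 0.12 (95% interval -0.063 to 0.30, adjusted p = 0.628 in limma) was 0.060 without agomir NC replicate 3 and 0.079 without agomir replicate 1.

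*AGO4* was the lowest of the 10 machinery genes. It was at 0.940, 1.56 and 1.08 FPKM under the agomir and at 0.918, 0.890 and 0.818 FPKM under the agomir NC. The groups did not overlap, but the nearest libraries almost met, and agomir replicate 2 stood well above the rest. Its log2 fold change of 0.29 had the widest interval of the 10 genes (95% interval -0.066 to 0.64, adjusted p = 0.549 in limma), and it was 0.14 without agomir replicate 2. Without agomir replicate 1 it was 0.40, past the line (unadjusted p = 0.0415 in limma). The added 0.5 FPKM weighs more at this level, and with 0.1 FPKM in its place the log2 fold change was 0.38.

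Summed, the Argonaute genes gave 26.6, 27.7 and 27.0 FPKM in the agomir libraries and 25.4, 23.7 and 22.2 FPKM in the agomir NC libraries. Each agomir library lay above each agomir NC library, at 27.1 ± 0.572 against 23.8 ± 1.61 FPKM (SD, n = 3 each). The makeup of the sum was close in both groups. *AGO2* gave 53.9 ± 1.97% of it under the agomir and 54.1 ± 1.27% under the agomir NC, and *AGO1* 25.0 ± 1.85% and 26.1 ± 0.789% (SD, n = 3 each). *AGO3* followed with 16.6 ± 1.03% and 16.1 ± 0.720%, and *AGO4* with 4.39 ± 1.10% and 3.69 ± 0.0713% (SD, n = 3 each), and for all 4 shares the groups overlapped. The Argonautes are paralogs, and how reads that fit more than one of them were counted is not stated.

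**Figure D2:**
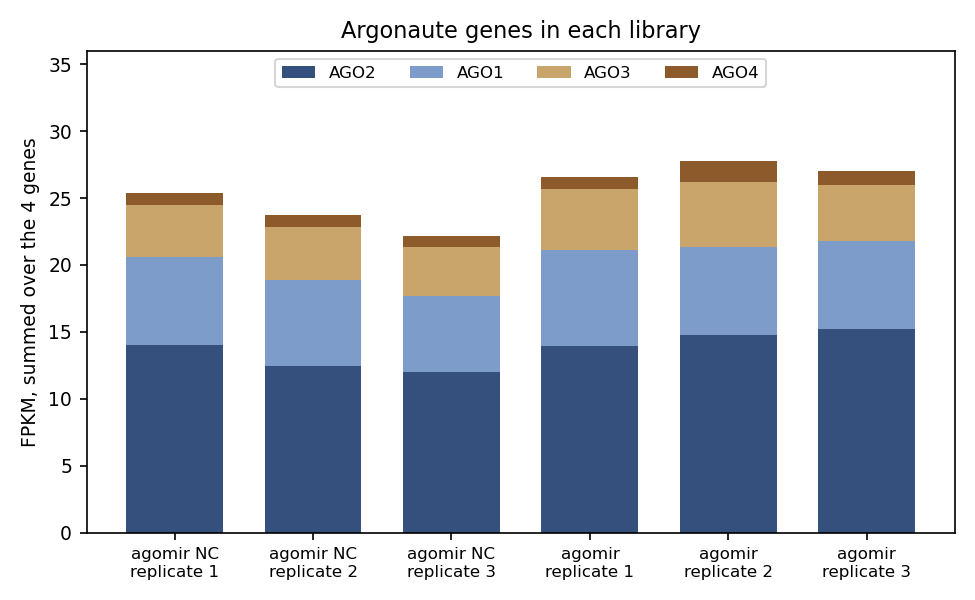
FPKM of *AGO2*, *AGO1*, *AGO3* and *AGO4*, stacked for each library (linear axis from 0). The sums run from 22.2 to 25.4 FPKM in the agomir NC libraries and from 26.6 to 27.7 FPKM in the agomir libraries, and *AGO2* takes between 52.4% and 56.1% of each.

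*TNRC6A* encodes a GW182 protein, which binds Argonaute and brings in the deadenylases. It was at 12.2, 12.5 and 12.8 FPKM under the agomir and at 11.3, 10.3 and 11.5 FPKM under the agomir NC. The groups did not overlap, and the agomir libraries lay close together. The log2 fold change was 0.17 (SE 0.064, 95% interval 0.029 to 0.31), with limma's unadjusted p at 0.0232 and its adjusted p at 0.389. It missed the unadjusted line without agomir replicate 2, agomir replicate 3 or agomir NC replicate 2, and once the gene span trend was taken out, at a log2 fold change of 0.14.

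The paralogs *TNRC6B* and *TNRC6C*, which are not among the 10, were lower in level. *TNRC6B* was at 6.13, 6.96 and 5.90 FPKM under the agomir and at 5.57, 5.51 and 4.45 FPKM under the agomir NC, without overlap. The log2 fold change of *TNRC6B* was 0.27 (SE 0.10, unadjusted p = 0.0257, adjusted p = 0.398 in limma), and it missed the unadjusted line without agomir replicate 2 (0.21) or agomir NC replicate 3 (0.17). *TNRC6C* was at 3.69, 3.98 and 3.90 FPKM against 3.97, 3.57 and 3.19 FPKM, with overlapping groups and a log2 fold change of 0.10 (SE 0.097), which was 0.032 without agomir NC replicate 3 and 0.17 without agomir NC replicate 1. The TNRC6 genes summed to 22.7 ± 0.725 FPKM under the agomir and 19.8 ± 0.908 FPKM under the agomir NC (SD, n = 3 each), and the agomir libraries were all higher. The ratio of summed Argonaute to summed TNRC6 FPKM was close in both groups, at between 1.18 and 1.21 under the agomir and between 1.16 and 1.22 under the agomir NC.

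The other genes of the pathway were taken from a list of 72 genes by role, of which 69 passed the filter. *LIN28A*, *LIN28B* and *TRIM71*, genes of early development, were listed at 0 in every library. Of the 69, 45 had a log2 fold change above 0 and 24 below, with a median of 0.027. Of all genes tested, 55.1% were above 0, with a median of 0.013. At the unadjusted p of 0.05, 7 were higher and 1 lower under the agomir, where 6.63% of all genes were higher and 4.31% lower. Both directions together made 8 of 69, a share close to the 10.9% of all genes. At the adjusted threshold in limma 0 of 69 were called, with 8 at an unadjusted p under 0.05. The count of 8 was 4 without agomir replicate 2, where 8.09% of all genes were past the line, and 5 after median-ratio scaling, where 11% were. The groups were apart in 12 of the 69 genes, 11 with the agomir above and 1 below. Among all genes 17.2% had groups apart, 10.9% with the agomir above and 6.36% below.

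Of the 14 genes of poly(A) tail shortening, 4 were past the unadjusted line, 3 higher and 1 lower, where 10.9% of all genes were past it. The groups were apart in 7 of the 14, 6 with the agomir above and 1 below. Of all genes, 17.2% had groups apart, 10.9% with the agomir above and 6.36% below. *CNOT6*, a catalytic deadenylase subunit of the CCR4-NOT complex, was at 8.03, 8.01 and 8.19 FPKM under the agomir and at 6.63, 6.36 and 7.02 FPKM under the agomir NC, giving a log2 fold change of 0.26 (SE 0.069, unadjusted p = 0.00398 in limma). *PAN3*, which encodes the adaptor of the PAN2-PAN3 deadenylase, was at 14.8, 16.8 and 15.4 FPKM against 12.8, 12.3 and 14.2 FPKM, a log2 fold change of 0.25 (SE 0.073, unadjusted p = 0.00664 in limma). In both genes every agomir library was higher. *CNOT1*, the scaffold of CCR4-NOT, was at 25.4, 27.5 and 25.9 FPKM against 25.0, 24.0 and 23.4 FPKM, a log2 fold change of 0.12 that missed the unadjusted line in 10 of 16 other settings, among them the fits without agomir replicate 2 or 3 and without agomir NC replicate 2 or 3.

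*CNOT8*, another catalytic subunit of the same complex, went the other way. It was at 8.49, 8.13 and 8.21 FPKM under the agomir and at 10.8, 10.8 and 10.0 FPKM under the agomir NC, so all agomir libraries were lower, by more than the spread within a group. The means of 8.28 ± 0.189 and 10.5 ± 0.440 FPKM (SD, n = 3 each) gave a log2 fold change of -0.33 (SE 0.064, 95% interval -0.47 to -0.18). Its unadjusted p in limma, 0.000519, was the lowest among the 10 machinery genes and the 69 pathway genes, and its adjusted p was 0.179. It stayed past the unadjusted line in all 16 other settings, between -0.36 and -0.31. Its close paralog *CNOT7* was at 28.4 FPKM under the agomir and 26.1 FPKM under the agomir NC, giving a log2 fold change of 0.12 (unadjusted p = 0.0886 in limma).

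The other roles, of between 2 and 13 tested genes, each held 0 or 1 past the unadjusted line, where 10.9% of all genes were past it. *LIMD1*, which encodes a LIM protein that binds Argonaute, was at 15.9, 17.8 and 16.7 FPKM under the agomir and at 15.7, 14.5 and 12.5 FPKM under the agomir NC, giving a log2 fold change of 0.23 (SE 0.084, unadjusted p = 0.0198 in limma), which missed the line without agomir replicate 2 (0.19) or agomir NC replicate 3 (0.15). *NUP153*, a nuclear pore gene, was at 14.4 ± 0.215 against 13.0 ± 0.315 FPKM (SD, n = 3 each) with a log2 fold change of 0.14, and lost the unadjusted line in 9 of 16 other settings (from 0.11 to 0.16 over all 16), among them the fits without any 1 library other than agomir NC replicate 2. *HSPA8*, the chaperone gene with the highest level, was at 375 ± 22.1 against 344 ± 17.3 FPKM (SD, n = 3 each), with overlapping groups, and also lost the line in 9 of 16. Its log2 fold change of 0.12 was 0.077 without agomir replicate 2 and 0.081 without agomir NC replicate 2, and it also missed the line without agomir replicate 1 or agomir NC replicate 3. The 13 genes of decapping, decay and translational repression held 0 past the line in limma, where 10.9% of all genes were past it, and 0 with groups apart, where 17.2% of all genes had such groups, with a median log2 fold change of 0.031.

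Of the genes with the highest level in their role, *HSPA8* and *TNRC6B* were past the unadjusted line and the others were not. *DDX5*, a helicase that works with DROSHA, was at 130 ± 2.01 FPKM under the agomir and 129 ± 3.55 FPKM under the agomir NC (SD, n = 3 each), which is a log2 fold change of 0.0069 (95% interval -0.081 to 0.095). *RAN*, the GTPase that export receptors need, had one of -0.090 (95% interval -0.21 to 0.030), or -0.038 without agomir replicate 3 and -0.059 without agomir NC replicate 1, and *SND1*, a nuclease-like RNA-binding gene, of 0.020 (95% interval -0.074 to 0.11). *PABPC1*, the poly(A)-binding protein gene, had -0.028 (95% interval -0.12 to 0.066), or 0.055 with quantile normalization, and between -0.060 (without agomir replicate 2) and -0.0037 (without agomir replicate 1) with 1 library left out. *LSM14A*, a P-body gene, had -0.0029 and *PARN*, a poly(A) nuclease gene, -0.0088. *FXR1*, an RNA-binding gene, ranged from 30.3 to 46.1 FPKM within the agomir NC group alone, so its log2 fold change of 0.027 (95% interval -0.28 to 0.34) says little.

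**Figure D3:**
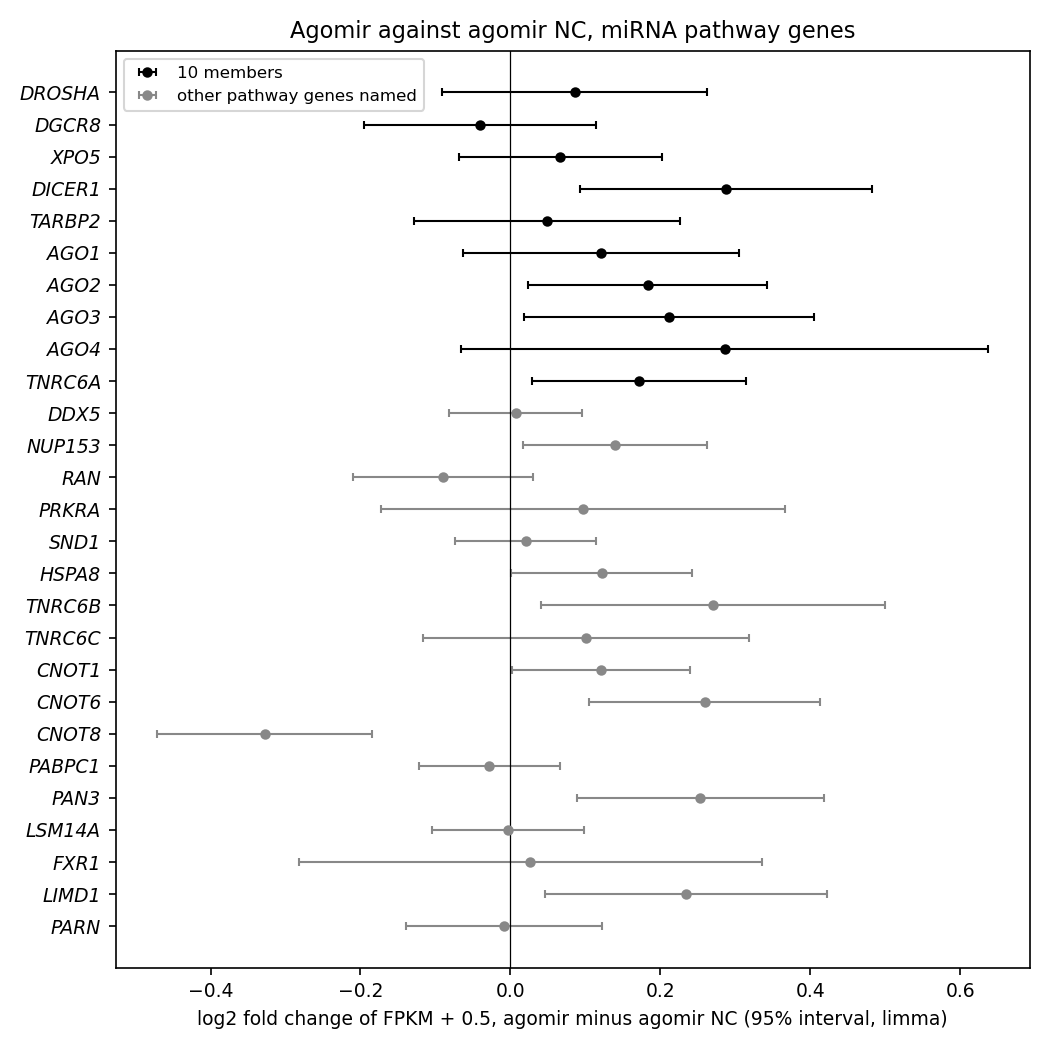
Log2 fold change of FPKM + 0.5, agomir minus agomir NC, with limma's 95% interval, for the 10 machinery genes (black) and the other pathway genes named (grey). The intervals of *DICER1*, *AGO2*, *AGO3* and *TNRC6A* lie above 0, those of the other 6 machinery genes cross 0, and *CNOT8* lies below 0 at -0.33.

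The mean of the standardized log2 values of the 10 genes was 0.72, 0.72 and 0.25 in agomir replicates 1, 2 and 3 and -0.30, -0.62 and -0.77 in the agomir NC replicates. Among 11242 other genes with a symbol, the closest to this pattern over the 6 libraries were *ANKFY1* (Pearson r = 0.998), an endosome gene, *CLDN12* (r = 0.997), a claudin, and *CHSY1* (r = 0.997), a chondroitin synthase. *ANKFY1* was at 17.5 FPKM under the agomir and 15.9 FPKM under the agomir NC, *CLDN12* at 4.34 and 3.24 FPKM, and *CHSY1* at 27.6 and 25.8 FPKM. These 6 points share libraries and the search covered all those genes, so the values of r describe the libraries.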

How the data were processed

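RNA of 3 agomir and 3 agomir NC libraries was analysed. For each gene and library the authors deposited FPKM (1 value), and the submitters' processing notes name fastp, HISAT2, StringTie and the build ARS-UCD1.2, without versions or annotation. In ratios of low values between libraries, at most 17 of 2195 genes shared a bin 0.002 wide on the log2 scale, so whole reads could not be recovered, and depth and counting error are unknown. Genes averaging 0.5 FPKM or more were taken as log2(FPKM + 0.5), which understates changes of low genes, and compared with limma 3.58.1 in R 4.3.3 (variance trend, two-sided, Benjamini-Hochberg over 12422 genes), without a replicate term. The fit was tested on simulated data. Single genes were also given an exact permutation test over 20 labelings, whose smallest two-sided p is 0.1. The members and lists were chosen with earlier results of these data known. Besides the 10 genes, the rule named *TNRC6B*, *TNRC6C*, *PRKRA*, the highest gene of each role, each pathway gene past an unadjusted p of 0.05, and the 3 genes closest in pattern. *CNOT7*, *POLR1C* and the genes listed at 0 were named after their values were seen. *TUT4*, *TUT7* and *TENT2* were matched through synonyms. Names, neighbors and spans are those of RefSeq (ARS-UCD2.0), where all 10 genes matched. As its build differs from that of the files, no coordinates are given. The alternatives were a replicate block, quantile normalization or median-ratio scaling, array weights, the trend switched off, a pseudocount of 0.1 or 1, the filter dropped or set at 1 FPKM, a gene span trend removed (11463 genes with a span), and each library left out in turn.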

Additional observations from a re-analysis of the deposited data

How the results depend on the processing

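The median log2 fold change of the 10 machinery genes, 0.15, moved by less than the spread between replicates under every setting, from 0.12 to 0.17. The 4 genes past an unadjusted p became 2 after the gene span trend was removed, which took out *AGO3* and *TNRC6A*, and between 1 and 4 when 1 library was left out. The 8 pathway genes became 5 with median-ratio scaling and 5 with the replicate block, and between 4 and 7 with 1 library left out. Of all genes, 11% were past an unadjusted p of 0.05 with median-ratio scaling and 10.1% with the block. That share was 11.5% with the span trend removed and between 8.09% and 11.5% with 1 library left out. The 1 gene past an adjusted p of 0.05 among all genes, *TRAPPC4*, which is not of this pathway, became 0 with the replicate block, 0 with the trend switched off and 0 with no filter, where limma's unadjusted p was under 0.05 for 1260, 1249 and 1604 genes. With 1 library left out, between 0 and 2 genes passed, and *TRAPPC4* was among them only without agomir NC replicate 3. Apart from the changed number of genes or libraries in a fit, the cause was not tested. No machinery gene came past the adjusted threshold under any setting, the lowest adjusted p being 0.248. Of 160 log2 fold changes of machinery genes, 158 had the same direction, and those of *DGCR8* (from -0.081 to 0.017) and *TARBP2* (from -0.020 to 0.098) changed sign once each when 1 library was left out. Among the pathway genes, *DDX5* was at -0.0096 with median-ratio scaling, *PABPC1* at 0.055 with quantile normalization, and *SND1* at -0.011 and *FXR1* at -0.0012 with the span trend removed. With 1 library left out, *DDX5* ranged from -0.0077 to 0.029, *SND1* from -0.0015 to 0.042, *LSM14A* from -0.019 to 0.024, *FXR1* from -0.15 to 0.15 and *PARN* from -0.039 to 0.0078. Replicate numbers 1 to 3 occur in both groups, and whether they pair the libraries is not stated. The deviations of same-numbered libraries correlated at -0.051, 0.053 and 0.039 across genes. Those of differently numbered libraries correlated at between -0.11 and 0.072. As these ranges overlap, the correlations cannot decide whether the libraries were paired. With the block, 4 of the 10 machinery genes were past the unadjusted p. Without the depth, counting error near 1 FPKM, the level of *AGO4*, cannot be given.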
